A study of Homo sapiens with 12 samples.

Results

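The transcripts described here are 10 effectors and feedback inhibitors of the Wnt pathway, CTNNB1, APC, AXIN1, AXIN2, LEF1, TCF7, TCF7L1, TCF7L2, DKK1 and DKK2, chosen by gene symbol from a table of 26334 symbols. They were measured in shA673-1c cells, an Ewing sarcoma line derived from A673. Every group was grown with blasticidin and zeocin and given 5 µM of actinomycin D (ActD), which blocks transcription, for 0, 1, 2 or 4 h. Each time had 3 biological replicates, giving 12 poly(A) RNA-Seq libraries. The line is a clone, known from background knowledge to carry a doxycycline-inducible hairpin against EWSR1::FLI1. The labels name no doxycycline, so there is no group with the fusion lowered, and no untreated culture beside the ActD series is among these libraries.

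In the canonical Wnt pathway, β-catenin is held low by a cytoplasmic destruction complex and acts in the nucleus, once released, as a partner of DNA-binding TCF and LEF factors. AXIN2 is a textbook target of that partnership and itself part of the destruction complex, so it closes a negative feedback loop. DKK proteins are secreted antagonists that bind the LRP5 and LRP6 co-receptors, and in Ewing sarcoma the Wnt pathway has been studied for its opposition to the fusion's transcriptional program.

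Library totals ranged from 9147018 to 11194705 counts. Values are given as CPM (counts scaled to library size) with edgeR's TMM factors, which ranged from 0.924 to 1.05. No spike-in is named in the sources used here, so every level and slope is relative to the rest of the poly(A) RNA left in that library, not an amount per cell. Under this scaling the median slope of all 12032 tested genes was 0.01 on the log2 scale per hour. MYC, JUN and IER2, short-lived transcripts, checked the time labels: at 4 h MYC had fallen by 4.00, JUN by 3.17 and IER2 by 3.01 on the log2 scale. Of the 6 Ewing sarcoma markers, PRKCB (1015 to 1789 counts), STEAP1 (499 to 708), NR0B1 (69 to 451) and NKX2-2 (7 to 87) were counted in every library and CCK was low (1 to 16), whereas CD99, a defining surface marker, was listed at 0. Markers of other cell types stayed at 6 counts or below, and CD3E and ALB were at 0. All 15 protein-coding genes of the first pseudoautosomal region in the table, CD99 and the housekeeping gene SLC25A6 among them, were at 0 in all 12 libraries, as was CSNK1E, a casein kinase of the pathway (these genes were looked up after their values were seen). A 0 in this table can therefore belong to genes that cells in general express, and its cause was not tested.

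Of the 10 transcripts 7 averaged 10 counts or more per library and were tested. TCF7 (mean 8.92) and LEF1 (mean 2.58) did not, and DKK1 was listed at 0 in 12 of 12 libraries. Per kilobase of the canonical transcript, the level at 0 h was highest for CTNNB1, at 67.8 ± 1.22 CPM per kb (SD, n = 3). DKK2 followed with 23.7 ± 3.43, then AXIN1 with 12.9 ± 1.07, TCF7L1 with 10.0 ± 0.979 and APC with 8.24 ± 1.02 CPM per kb. TCF7L2 stood at 4.31 ± 0.235 and AXIN2, the feedback target, at only 1.61 ± 0.169 CPM per kb. TCF7 had 0.231 ± 0.141 and LEF1 0.106 ± 0.00564 CPM per kb. The 3 libraries of each gene did not overlap with those of its neighbour in this order, although TCF7 and LEF1 came as close as 4 counts each in replicate 2. Among all tested genes CTNNB1 lay at percentile 91.5 of this level and AXIN2 at percentile 15.4. The order rests on 1 canonical isoform per gene, which need not be the isoform these cells use.

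Short elements in 3′ untranslated regions (3′ UTRs) are known from other systems to bear on mRNA decay, and they are shown here because decay is what the ActD course follows. The AUUUA pentamer is the core of AU-rich elements, UAUUUAU is a longer version of it that always contains an AUUUA, and UGUANAUA is the sequence that Pumilio proteins bind. Canonical transcripts of GENCODE version 44 on GRCh38 were searched on the mRNA strand only. AXIN2 (chr17:65528563-65561648, minus strand, 11 exons) has a 3′ UTR of 1413 bases with 3 AUUUA, 2 of them inside UAUUUAU, and 1 UGUANAUA. The windows below are 25 bases, written 5′ to 3′ with the motif in capitals, and the base given is the motif's own first base, counted from 1 at the start of the 3′ UTR.
AXIN2, motif at base 219: agccugaacUAUUUAUuaaaaacau
AXIN2, motif at base 369: ccuuacugaUAUUUAUagaacaguu
AXIN2, motif at base 1078: uauacaucUGUAUAUAguguacggc
APC, motif at base 97: aaaaauuuUGUAAAUAgguuugauu
APC, motif at base 397: aaaaauuggUAUUUAUgcaaaaaaa
AXIN1, motif at base 547: agggcccgUGUAAAUAuguacauuu
TCF7L2, motif at base 658: ggccaguagUAUUUAUugcuuuaga
TCF7L2, motif at base 820: auaaaaugUGUAUAUAuauuuuugu
DKK2, motif at base 222: cuugucuaUGUAAAUAauguacaca
DKK2, motif at base 1247: uccucaaauUAUUUAUuuuauagug

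Of 10819 tested coding genes, 75.1% had AUUUA in the 3′ UTR, 37.6% UAUUUAU and 31.7% UGUANAUA, so none of these matches is uncommon. DKK2 (chr4:106921802-107283806, minus strand) held 11 AUUUA in 2152 bases, or 5.11 per kb, which is percentile 91.9 of those genes against a median of 1.78 per kb. APC (chr5:112707518-112846239, plus strand) held 7 in 2113 bases and TCF7L2 (chr10:112950247-113167678, plus strand) 2 in 1706. CTNNB1 (chr3:41194741-41260096, plus strand) had 1 in 1101 bases and none of the longer motifs. TCF7L1 (chr2:85133392-85310387, plus strand) had 2 in 925, also without the longer motifs, and AXIN1 (chr16:287440-352723, minus strand) had no AUUUA in 682. A match is a description of the sequence and not a site shown to be bound.

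The slope over 0 to 4 h describes how fast each transcript changed, relative to the rest of the poly(A) RNA, once transcription was blocked. Of the 7 tested transcripts 5 fell (APC, AXIN1, AXIN2, TCF7L1 and TCF7L2), beside 32.1% of all tested genes. CTNNB1 rose by a little under TMM scaling, beside 30.7% of all genes, and its direction turned under another scaling. DKK2 did not pass this test, which ignores the replicate numbers. With the replicate block, which compares libraries within a replicate number, DKK2 fell too (edgeR adjusted p = 0.00203), beside 34.8% of all genes. At 4 h against 0 h, again without the block, the same 5 were lower (31.6% of all genes were) and CTNNB1 was higher (28.7% of all genes were). The log2 differences were -2.01 ± 0.24 (SE) for AXIN2, -1.38 ± 0.10 for AXIN1, -1.18 ± 0.11 for TCF7L2, -1.11 ± 0.10 for APC and -0.51 ± 0.11 for TCF7L1, with edgeR adjusted p from 7.31e-08 (AXIN1) to 0.00104 (TCF7L1). DKK2 had -0.22 ± 0.12 (edgeR adjusted p = 0.135). With the block it had -0.22 ± 0.050 (edgeR adjusted p = 0.000231), for which no share of all genes was computed.

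**Figure D1:**
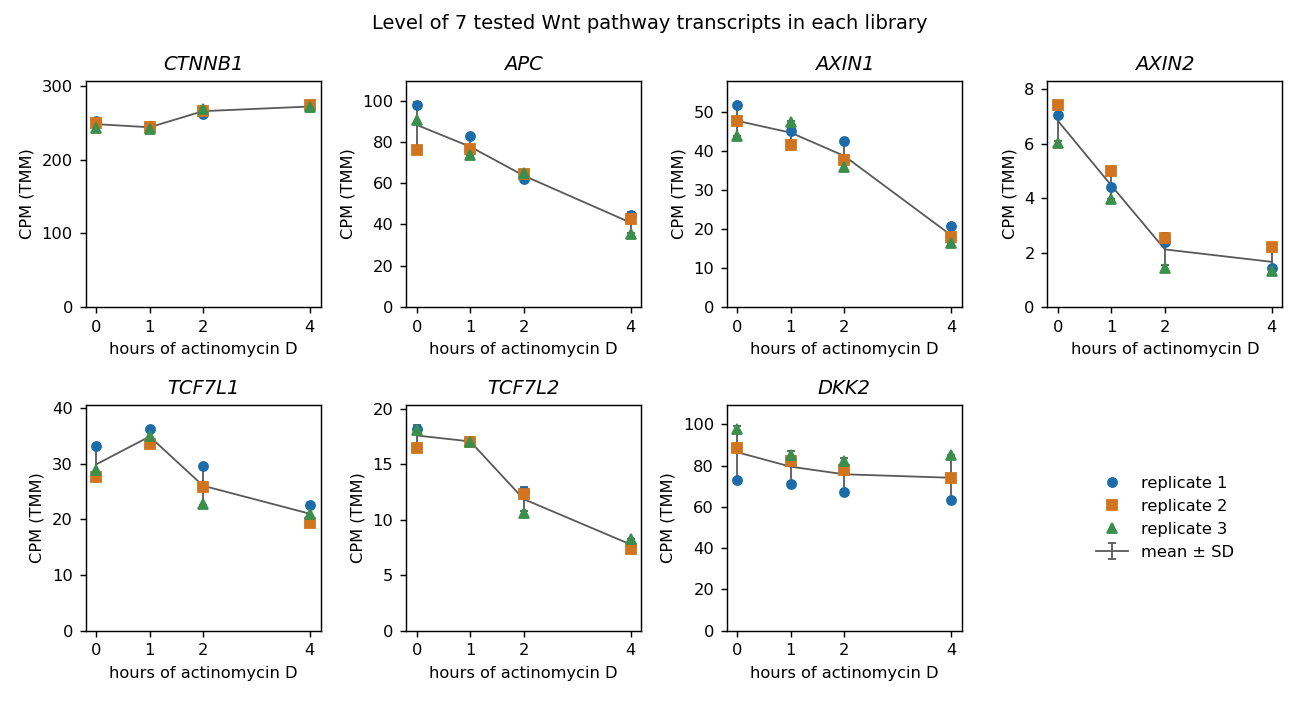
CPM after TMM scaling (vertical axes, from 0) against hours of ActD for the 7 tested transcripts; points are the 3 replicates, the line and bars the mean ± SD. AXIN2 goes from 6.84 to 1.66 CPM, with its 2 h and 4 h libraries overlapping, whereas CTNNB1 goes from 248 to 272 CPM.

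AXIN2, the scaffold protein that is also a Wnt target, had the steepest slope of the 7. It had 72, 77 and 68 counts at 0 h (replicates 1 to 3), 46, 51 and 44 at 1 h, 24, 25 and 15 at 2 h, and 12, 23 and 12 at 4 h. The 0 h, 1 h and 2 h libraries did not overlap with each other, while those of 2 h and 4 h did. AXIN2 went from 6.84 ± 0.721 CPM to 1.66 ± 0.488 (SD, n = 3), or 24.1% ± 5.20 of each replicate's own 0 h level. The slope was -0.55 ± 0.072 (SE) on the log2 scale per hour (edgeR adjusted p = 4.9e-06), a half-life of 1.81 h relative to the rest of the RNA. It was the slope of rank 440 from the lowest among 12032 genes. Over 0, 1 and 2 h only the half-life was 1.24 h, and over 1, 2 and 4 h it was 2.14 h. With 12 to 25 counts in each library from 2 h on, counting error is large for this gene.

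AXIN1, the constitutive scaffold of the destruction complex, fell mainly late. Its counts were 526, 494 and 493 at 0 h, 470, 424 and 522 at 1 h, 429, 372 and 371 at 2 h, and 176, 185 and 147 at 4 h. Every 4 h library lay far below the lowest earlier count, 371. AXIN1 kept 81.2% ± 1.82 of its 0 h level at 2 h and 38.5% ± 1.57 at 4 h (SD, n = 3). Its slope was -0.34 ± 0.039 (edgeR adjusted p = 1.13e-06), a half-life of 2.92 h if a straight line is assumed. Over 0, 1 and 2 h only the slope was -0.14 (edgeR adjusted p = 0.0405) with a half-life of 7.22 h, and over 1, 2 and 4 h the half-life was 2.27 h.

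APC, the tumor suppressor that brings β-catenin to the complex, had 995, 791 and 1022 counts at 0 h and 864, 781 and 813 at 1 h. At 2 h it had 623, 635 and 672 counts, and at 4 h 377, 443 and 315. The 0 h and 1 h libraries overlapped in counts, and those of 2 h and 4 h stood apart from them and from each other. The level went from 88.2 ± 11.0 to 40.9 ± 4.97 CPM, with a slope of -0.28 ± 0.024 (edgeR adjusted p = 6.21e-08) and a half-life of 3.56 h. The 3 replicates differed in the share left at 4 h, which was lowest in replicate 3 and highest, 56.2%, in replicate 2.

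CTNNB1, which encodes β-catenin, was nearly level. It had 2564, 2588 and 2741 counts at 0 h, 2560, 2496 and 2668 at 1 h, 2638, 2633 and 2784 at 2 h, and 2292, 2831 and 2422 at 4 h. These raw counts overlapped at all times, and only after scaling did the 4 h libraries (271 to 274 CPM) lie above those of 0 h (243 to 252 CPM). The slope was 0.04 ± 0.012 (edgeR adjusted p = 0.00804), higher at 4 h in 3 of 3 replicates. With library totals the slope was 8.32e-05 (adjusted p = 0.996), and with libraries scaled to GAPDH plus ACTB it fell, by 0.10 per hour (adjusted p = 0.000169), within a range of adjusted p from 0.000169 to 0.996 over 12 alternatives. Without replicate 3 the TMM slope was 0.03 and no longer passed the test (edgeR adjusted p = 0.0711). At 4 h against 0 h CTNNB1 was higher by 0.13 ± 0.044 (edgeR adjusted p = 0.0186), a call lost on leaving out any single replicate (0.15 without replicate 1, 0.13 without replicate 2 and 0.10 without replicate 3). Its annotated span overlaps ULK4 on the opposite strand, which had 24 to 58 counts.

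The TCF and LEF genes encode the DNA-binding partners of β-catenin, and TCF7L1 is known mainly as a repressor among them. TCF7L1 had 338, 287 and 325 counts at 0 h, 379, 342 and 385 at 1 h, 299, 255 and 235 at 2 h, and 191, 201 and 188 at 4 h. The 1 h libraries were the highest and the 4 h libraries the lowest, with no overlap between them and any other time. Its slope was -0.16 ± 0.036 (edgeR adjusted p = 0.00119), a half-life of 6.38 h, and 70.4% ± 2.46 of the 0 h level was left at 4 h. With the 4 h libraries left out the slope was -0.08 and did not pass the test (edgeR adjusted p = 0.451), and with the 0 h libraries left out it was -0.24, a half-life of 4.17 h.

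TCF7L2 was at 97.1% ± 5.07 of its 0 h level at 1 h (SD, n = 3) and lower after that. Its departure from a straight line was not called (edgeR adjusted p = 0.361). Counts were 185, 171 and 204 at 0 h, 179, 173 and 188 at 1 h, 127, 122 and 110 at 2 h, and 65, 76 and 74 at 4 h. The 0 h and 1 h libraries overlapped, and the 2 h and 4 h libraries were lower without overlap. The slope was -0.31 ± 0.033 (edgeR adjusted p = 4.3e-07), a half-life of 3.19 h, with 44.2% ± 1.75 left at 4 h.

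TCF7 and LEF1, the members best known from lymphocytes, were too low to follow. TCF7 had 13, 4 and 7 counts at 0 h and 3, 12 and 8 at 4 h, between 3 and 13 throughout. It shares its locus with SKP1 on the opposite strand, which had 3152 to 4589 counts. The libraries are stranded, but the strand setting of the counting is not given in the sources used here, so TCF7's few counts are uncertain. LEF1 had 4 counts in each 0 h library, 8, 1 and 3 at 1 h, 2, 1 and 0 at 2 h, and 1, 2 and 1 at 4 h. Summed over replicates it had 12, 12, 3 and 4 counts, and with no filter its slope of -0.43 ± 0.20 did not pass the test (edgeR adjusted p = 0.105, against 0.908 for TCF7). The antisense gene LEF1-AS1 had at most 1 count in a library.

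Per kilobase, TCF7L1 made up 68.3% ± 1.03 of the 4 TCF and LEF transcripts at 0 h and 76.2% ± 2.31 at 4 h (SD, n = 3). TCF7L2 made up 29.5% ± 1.60 at 0 h and 20.7% ± 0.997 at 4 h. The libraries of 0 h and 4 h did not overlap for either share, and TCF7 and LEF1 together remained a small remainder.

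DKK2, a secreted DKK family protein that modulates LRP co-receptors, was the slowest of the transcripts with a negative slope. It had 743, 920 and 1102 counts at 0 h, 742, 838 and 940 at 1 h, 676, 772 and 851 at 2 h, and 536, 764 and 760 at 4 h. The replicates differed more from each other than the times did, with replicate 1 lowest at every time. Within its own replicate, each 4 h library was lower than 0 h, at 83.3% to 87.0%. The slope of -0.05 ± 0.028 did not pass the test (edgeR adjusted p = 0.115). With the replicate block, which compares libraries within a replicate number, the slope was -0.05 ± 0.013 and DKK2 fell (edgeR adjusted p = 0.00203, over a range of 0.000293 to 0.433 in 12 alternatives), as did 34.8% of all genes. With library totals in place of TMM factors DKK2 also fell, by 0.09 per hour (edgeR adjusted p = 0.0166), and was lower at 4 h (-0.37, edgeR adjusted p = 0.0305). The paired value, library totals and the GAPDH plus ACTB scaling each changed the call.

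DKK1, another secreted antagonist of the same family, had 0 counts in every library, which allows up to 0.266 to 0.355 CPM (3 counts) per library as counting error goes. Its span overlaps the antisense gene PRKG1-AS1, also at 0. As given above, genes such as SLC25A6 were at 0 as well, so DKK1 is reported only as listed at 0, and no ratio of DKK2 to DKK1 is given.

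**Figure D2:**
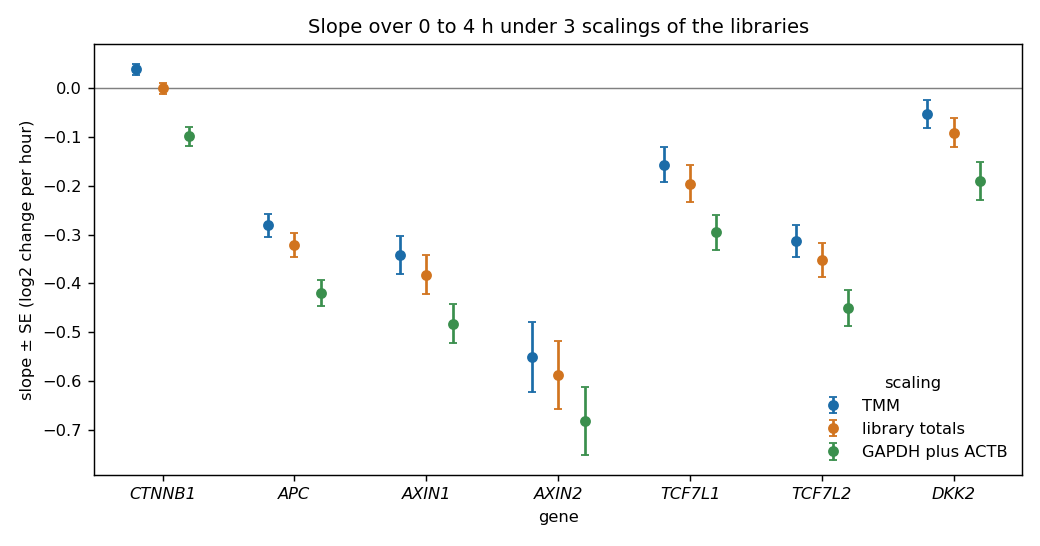
Slope over 0 to 4 h (log2 change per hour, vertical axis) ± SE for the 7 tested transcripts under TMM scaling, library totals and scaling to GAPDH plus ACTB. AXIN2 is lowest under each scaling, and CTNNB1 goes from 0.04 to 8.32e-05 and -0.10.

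Scaling set the zero line of all these slopes. GAPDH and ACTB themselves rose under TMM scaling, by 0.15 ± 0.013 and 0.12 ± 0.025 on the log2 scale per hour (edgeR adjusted p = 6.18e-08 and 0.00042). Tying each library to their sum moved the median slope of all genes from 0.01 to -0.13. Under it all 7 members fell, with half-lives of 1.46 h for AXIN2, 2.07 h for AXIN1, 2.22 h for TCF7L2 and 2.38 h for APC. TCF7L1 then had 3.39 h, DKK2 5.28 h and CTNNB1 10.2 h. The difference at 4 h against 0 h became -1.06 for TCF7L1 and -0.77 for DKK2. Over all genes, 3859 fell and 3694 rose with TMM, 4702 fell and 2244 rose with library totals, and 7729 fell and 112 rose with GAPDH plus ACTB. Which of the scalings is nearest to amounts per cell was not tested.

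Rates of change were also taken within each interval, and are given on log2(CPM + 0.5), which understates changes of low transcripts such as AXIN2. AXIN2 changed by -0.56 ± 0.06 per hour from 0 to 1 h, by -0.94 ± 0.23 from 1 to 2 h and by -0.14 ± 0.14 from 2 to 4 h (SD, n = 3). The rates of AXIN1 were lowest in the last interval instead, with -0.09 ± 0.18, -0.21 ± 0.17 and -0.53 ± 0.02. TCF7L1 went by 0.22 ± 0.09, then -0.42 ± 0.17 and -0.15 ± 0.08. TCF7L2 changed by -0.04 ± 0.07 in the first hour and -0.51 ± 0.13 in the next. APC changed by -0.18 ± 0.16, -0.28 ± 0.12 and -0.32 ± 0.10, and its replicates ran from 0.01 (replicate 2, 0 to 1 h) to -0.44 (replicate 3, 2 to 4 h).

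**Figure D3:**
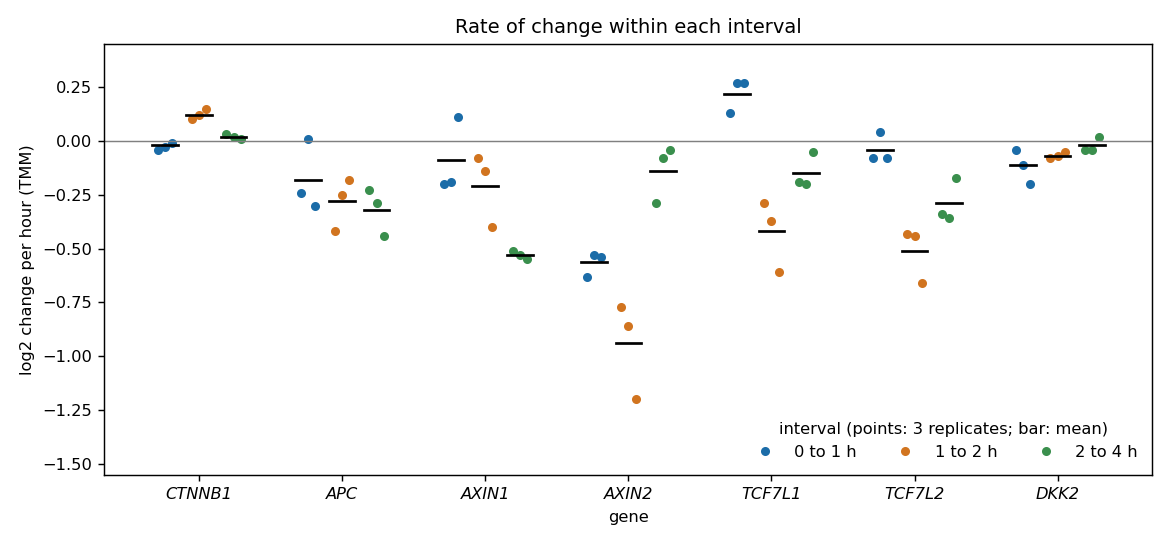
Rate of change, as log2(CPM + 0.5) per hour (vertical axis), in the intervals 0 to 1, 1 to 2 and 2 to 4 h; points are the 3 replicates and bars their mean. AXIN2 is lowest between 1 and 2 h (mean -0.94) and AXIN1 between 2 and 4 h (mean -0.53).

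Departure from a straight line, tested in edgeR with quadratic and cubic terms of time, passed the threshold for 0 of the 7 members and for 2.70% of all genes. At an unadjusted p below 0.05 there were 4, AXIN1, TCF7L1, AXIN2 and TCF7L2, with edgeR adjusted p = 0.0509, 0.131, 0.304 and 0.361. The share of all genes at that unadjusted threshold was not computed, so this count has no background. With the replicate block 3 passed, AXIN1 (edgeR adjusted p = 0.000117), TCF7L1 (0.000676) and AXIN2 (0.0445), beside 17.2% of all genes. The adjusted p over 9 alternatives ran from 0.000117 to 0.640 for AXIN1 and from 0.000676 to 0.888 for TCF7L1, and over 8 alternatives from 0.0445 to 0.973 for AXIN2. For TCF7L2 it was lowest with the replicate block, at 0.0787, and so was not called in any alternative. The half-lives of 2.92 h for AXIN1 and 1.81 h for AXIN2 assume a straight line. The main test called no departure for either, and for each the call differed between alternatives.

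The comparison of 1 h with 0 h asks which transcripts changed soonest. At 1 h against 0 h no member passed the threshold in edgeR or DESeq2, where 2.24% of all genes were lower and 0.349% higher in edgeR. At an unadjusted p below 0.05 there were 2, AXIN2, at -0.61 ± 0.20 on the log2 scale (adjusted p = 0.144), and TCF7L1, at 0.22 ± 0.10 (adjusted p = 0.345). Here too no share of all genes at the unadjusted threshold was computed. With the replicate block AXIN2 (edgeR adjusted p = 0.00511) and APC, at -0.18 ± 0.064 (adjusted p = 0.0453), were lower, beside 10.5% of all genes. TCF7L1 was then higher at 0.23 ± 0.072 (edgeR adjusted p = 0.0286), beside 6.18% of all genes. Over 10 alternatives the adjusted p ran from 0.0453 to 0.744 for APC and from 0.0286 to 0.858 for TCF7L1, and over 9 from 0.00511 to 0.551 for AXIN2.

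Ratios of 2 transcripts within a library do not depend on scaling. Of 10 pairs listed, 5 had both transcripts above the count filter, and slopes of their log2 count ratio were tested by exact two-sided permutation over all 369600 assignments of libraries to times, adjusted over the 5 pairs. APC over CTNNB1 fell by 0.32 per hour (exact p = 8.12e-06, adjusted 2.03e-05), from between -1.71 and -1.37 at 0 h to between -2.94 and -2.60 at 4 h. AXIN2 over CTNNB1 fell by 0.56 per hour (exact p = 0.0001, adjusted 0.000167), also in 3 of 3 replicates. Those assignments ignore the replicate numbers. Exchanging times only within a replicate number left 13824 assignments and a smallest possible p of 7.23e-05. The exact p was then 0.000145 for APC over CTNNB1 and 0.000289 for AXIN2 over CTNNB1. Both ratios fell in every replicate, a comparison that needs no scaling. As CTNNB1 was nearly level, they largely restate the slopes of APC and AXIN2. AXIN1 over CTNNB1 was not among the pairs, and no share over all genes was computed for ratios.

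TCF7L2 over TCF7L1 fell by 0.16 per hour (exact p = 5.41e-06, adjusted 2.03e-05), with replicate slopes of -0.17, -0.16 and -0.15. AXIN2 over APC fell by 0.24 (exact p = 0.0238, adjusted 0.0297), but this was lost without replicate 1 (adjusted 0.204) or replicate 2 (adjusted 0.0675) by the exact test. AXIN2 over AXIN1 had a slope of -0.17 that did not pass (exact p = 0.157). Within replicate numbers the exact p was 7.23e-05 for TCF7L2 over TCF7L1, 0.0298 for AXIN2 over APC and 0.168 for AXIN2 over AXIN1. Per kilobase, AXIN2 was 11.1% ± 0.731 of the AXIN transcripts at 0 h, 8.05% ± 1.33 at 1 h, 4.52% ± 1.07 at 2 h and 7.33% ± 2.17 at 4 h, so the ratio was lowest at 2 h rather than at the end.

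**Figure D4:**
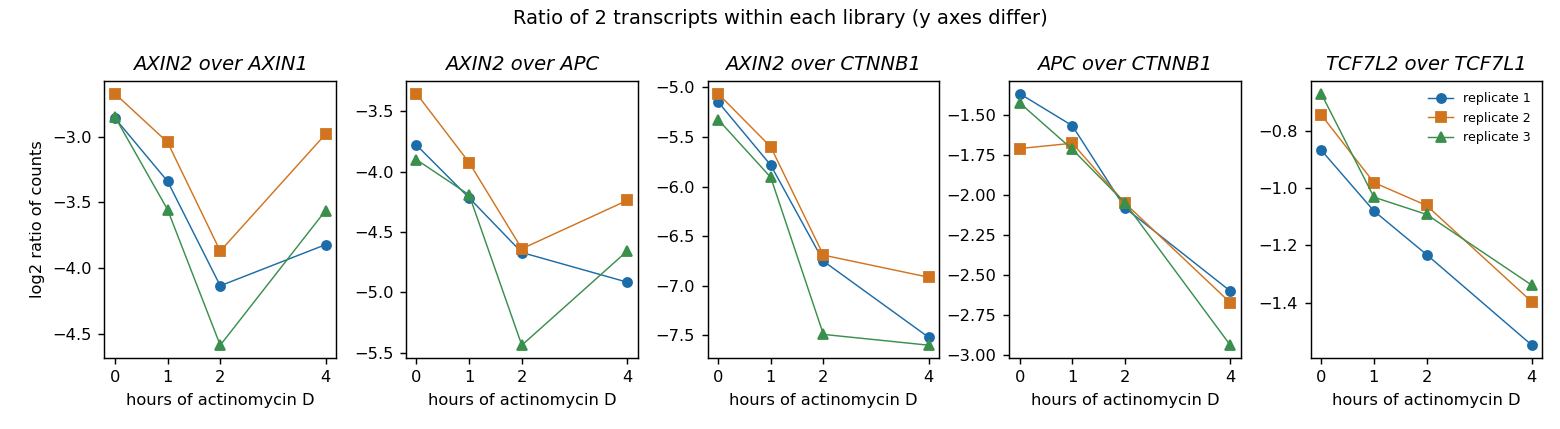
Log2 ratio of the counts of 2 transcripts within each library (vertical axes, which differ between panels) against hours of ActD, with a line per replicate. APC over CTNNB1 and TCF7L2 over TCF7L1 end lowest at 4 h in each replicate, and AXIN2 over AXIN1 is lowest at 2 h in each.

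The rest of the pathway was taken from 6 lists by role, with 127 distinct genes, of which 81 were tested. Of these 45 fell (55.6%) and 11 rose (13.6%) under TMM scaling, with a median slope of -0.12, beside 32.1% and 30.7% and a median of 0.01 for all tested genes. The lists were chosen with earlier results of these data known, and they were not compared with other genes by a test.

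Among ligands and their secretion, 5 of 25 were tested, so most WNT and RSPO genes fell below the count filter. WNT5A, a ligand of noncanonical signaling, fell with a slope of -0.15, and WLS, the carrier that brings Wnt proteins to the cell surface, rose with 0.12. WNT10B had the highest slope, 0.15, which did not pass (edgeR adjusted p = 0.150).

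Receptors and co-receptors were mostly expressed, with 16 of 19 tested. Of these 10 fell (62.5%) and 2 rose (12.5%), beside 32.1% and 30.7% of all tested genes. FZD8, a Frizzled receptor, went from 41.8 ± 4.16 to 6.49 ± 1.09 CPM (SD, n = 3), a slope of -0.69 and a half-life of 1.45 h. PTK7, a receptor of planar polarity signaling, and LRP5 were those that rose, by 0.15 and 0.10. Secreted and membrane inhibitors other than DKK1 and DKK2 had 5 of 20 tested. ZNRF3, the ligase that removes Frizzled receptors, fell from 25.6 ± 1.52 to 5.69 ± 0.834 CPM with a slope of -0.56, close to that of AXIN2. APCDD1, a membrane antagonist, fell with a slope of -0.06, and KREMEN1 had the highest slope, 0.07, which did not pass (edgeR adjusted p = 0.247).

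In the destruction complex and its control, 23 of 24 were tested. Of these 11 fell (47.8%) and 3 rose (13.0%), beside 32.1% and 30.7% of all tested genes. GSK3B, a kinase that marks β-catenin for degradation, had the lowest slope, -0.36, and went from 107 ± 5.15 to 40.6 ± 1.45 CPM. CSNK1G2, DVL3 and PPP2R1A, the scaffold subunit of phosphatase PP2A, rose, the last by 0.17. Nuclear partners had 21 of 21 tested, with 14 that fell (66.7%) and 4 that rose (19.0%), beside the same shares of all tested genes. The coactivator CREBBP had the lowest slope, -0.47. TLE2, a corepressor with a mean of 11.0 counts, had the highest, 0.26, and did not pass (edgeR adjusted p = 0.0773), whereas CTBP1, CTNNBIP1, JUP and TLE5, listed as AES, rose.

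Commonly cited target genes had 13 of 23 tested, with 8 that fell (61.5%), 1 that rose (7.69%) and a median slope of -0.56. Among all tested genes 32.1% fell and 30.7% rose. The list holds MYC and JUN, taken above as short-lived checks of the time labels, so its median is not independent of that choice. MYC had the lowest slope, -1.12, and EPHB2 the highest, 0.09, which did not pass (edgeR adjusted p = 0.0998). CCND1, the cyclin that rose, went from 1680 ± 55.1 to 1980 ± 111 CPM. Among the tested genes, ZNRF3 and LGR5 stand in 2 lists each. With the replicate block EPHB2 (edgeR adjusted p = 0.000282) and CD44, a cell adhesion receptor (2.59e-06, against 0.390 without the block), rose too, so that 3 target genes rose.

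Over the 81 genes, 47 fell (58.0%) and 16 rose (19.8%) with the replicate block, where 34.8% of all genes fell and 36.2% rose. The genes added were TLE2 (edgeR adjusted p = 0.0144), PORCN, FZD6, EPHB2 and CD44 among those that rose, and FZD3 and PPP2R5A among those that fell. PORCN, FZD6, CD44, FZD3 and PPP2R5A are named here after their values were seen. With library totals 50 of the 81 fell and 8 rose, beside 39.1% and 18.7% of all genes, and no longer CCND1, DVL3 or CSNK1G2 among those that rose. With GAPDH plus ACTB 63 fell and 0 rose in edgeR (0 with a positive slope at an unadjusted p below 0.05), beside 64.2% and 0.931% of all genes, so none of the rises named above was called there.

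**Figure D5:**
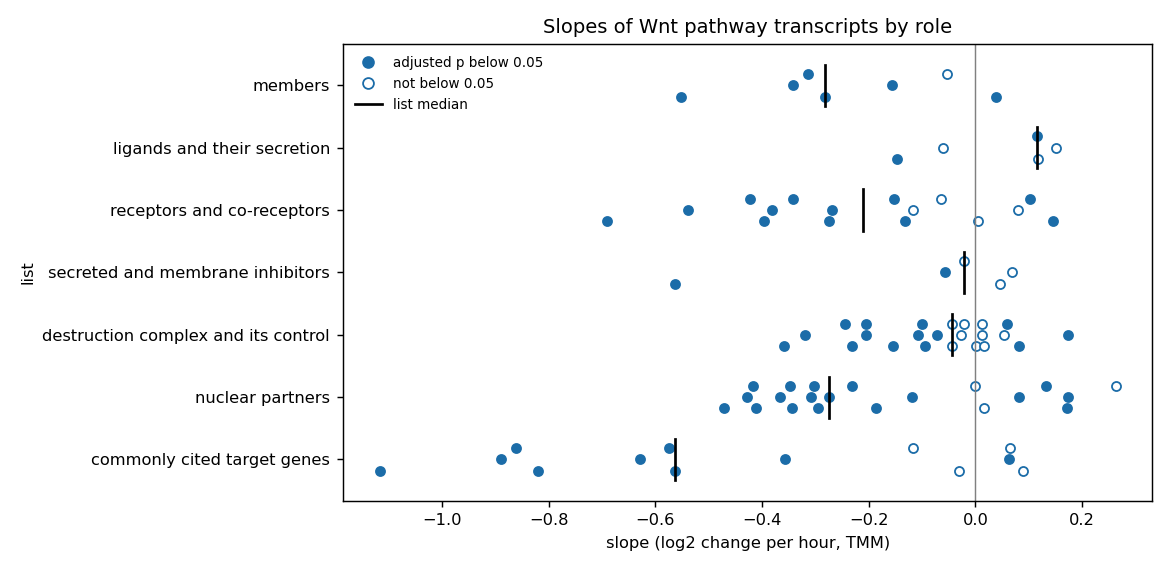
Slopes over 0 to 4 h (horizontal axis, log2 change per hour, TMM) of the 7 tested members and of the tested genes of 6 lists (rows); filled points have an adjusted p below 0.05, and the bar is the list median. The target genes have the lowest median, -0.56, and ligands the highest, 0.12. The target list includes MYC and JUN, the checks of the time labels.

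As a description, the transcripts nearest to AXIN2 over the 12 libraries, by root mean square distance of centred log2 CPM among 8856 genes averaging 100 counts or more, were ZNF304 (0.144), ZNF561 (0.167) and TSC22D2 (0.171). Those nearest to CTNNB1, among 8855, were CKAP4 (0.0321), DNM1L (0.0323) and LONP2 (0.0353).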

How the data were processed

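The authors deposited whole-number counts of reads per gene symbol for 12 libraries (TruSeq stranded mRNA, per the labels). The submitters' processing notes name FastQC, STAR and hg19 without roles, and the methods describe Prinseq, STAR and Salmon with tximport for this kit in general. The counter, its strand setting and its handling of overlapping genes are not given in the sources used here. Each column was matched to its sample by title. The members and lists were chosen with earlier results of these data known.

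The 12032 genes that averaged 10 counts or more were fitted with edgeR 4.0.16 in R 4.3.3 (glmQLFit and glmQLFTest, TMM factors), with time in hours as a number, as 4 groups, or with its square and cube. P-values were adjusted by Benjamini-Hochberg over all tested genes, with a threshold of 0.05, and half-lives were taken as -1/slope. The common biological coefficient of variation was 0.0905. Scripts were tested on simulated data. Pair ratios used a pseudocount of 0.5 and numpy 2.4.6. P-values measure only the spread between these cultures.

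Same-numbered libraries deviated together from their time means (18 pairs, correlations of 0.323 to 0.633, against -0.419 to 0.0902 in 36 other pairs), so the replicate numbers in the labels pair the samples. The main tests were fitted without this pairing, and the replicate block adds it. Deviations within a time sum to 0, so the other pairs mirror the same-numbered ones and are no independent comparison. Replicates of a time differed beyond counting noise (chi-square per degree of freedom 3.21 to 8.67 in 12 pairs), so none were merged.

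Named genes were all 10 members, the lowest and highest slope of each list and its genes past the threshold where these were 4 or fewer, MYC, JUN and IER2, GAPDH and ACTB, and 3 nearest patterns for AXIN2 and CTNNB1. Alternatives were other scalings, DESeq2 1.42.0, other filters, the replicate block, leaving out replicates or times and, for ratios, a pseudocount of 0.1. The upper bound given for DKK1 covers counting error only.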

Additional observations from a re-analysis of the deposited data

How the results depend on the processing

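The 5 members that fell by slope were called with each scaling and without each replicate; AXIN2 drops out with a filter of at least 100 counts by construction, and TCF7L1 with 0, 1 and 2 h only (slope -0.08). CTNNB1 was the only member whose direction turned in slope or at 4 h. The number of members that rose was 0 with library totals, with GAPDH plus ACTB, and with 0, 1 and 2 h or 1, 2 and 4 h only, and 0 to 1 when a replicate was left out. At 4 h against 0 h, the number higher was 0 with library totals, GAPDH plus ACTB and no filter, and 0 to 0 when a replicate was left out. CTNNB1 turned to a slope of -0.10 with GAPDH plus ACTB, and at 4 h to -0.013 with library totals and -0.41 with GAPDH plus ACTB. Departure from a straight line was called for 1 member (AXIN1) with library totals, DESeq2 size factors, GAPDH plus ACTB and no filter. The share of all genes that departed was not computed in these alternatives. With the replicate block, departure was called for 3 (17.2% of all genes), lower at 1 h for 2 (10.5%) and higher at 1 h for 1 (6.18%). With the block, falling by slope (34.8% of all genes) and lower at 4 h (share not computed) were called for 6. DKK2 was added to these, and no other member's call changed. DKK2 was called by slope and at 4 h with library totals and with GAPDH plus ACTB as well. Over 0, 1 and 2 h only, the slope of AXIN1 was -0.14 and that of AXIN2 -0.80. Among the ratios, only AXIN2 over APC lost its call, without replicate 1 or 2. The cause of these changes was not tested. Depth limits AXIN2 (12 to 25 counts at 2 and 4 h), TCF7 and LEF1.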
